A study of Mus musculus with 6 samples.

Results

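Multipotent progenitors of the MPP4 type from Mof heterozygous mice were compared with those of wild-type (WT) mice, in 3 libraries against 3, which are 6 of the 36 libraries of the series. The libraries were chosen by the population and genotype that their tables name, without any measured value. MPP4 were sorted from bone marrow as LSK cells (negative for lineage markers, positive for Sca-1 and cKit) that carry CD34, Flt3 and CD48 but not CD150, with 15 cells in a sort. Per the labels, the heterozygous mice are Mof -/+ and the others wild type. The sources used here do not give strain, age, sex or the design of the Mof allele. Among sex markers, Xist had 0 counts in all 6 MPP4 libraries. Ddx3y, of the Y chromosome, had 16, 6 and 10 counts in the Mof het libraries, against 2, 5 and 5 in the WT libraries. Each sort was flash frozen and profiled by CEL-Seq2, which tags RNA at its 3′ end and counts the tags per gene. All MPP4 libraries of a genotype were sequenced in one pool with the MPP2 and MPP3 libraries of that genotype, so genotype and pool cannot be told apart. Nothing in the labels ties the 3 libraries of a group to separate animals, so every p-value measures only the spread between libraries, which may be technical.

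MOF, the product of Kat8, is a lysine acetyltransferase that acetylates lysine 16 of histone H4, a mark of open and active chromatin. It works in the MSL complex, which marks gene bodies and is best known from dosage compensation in Drosophila, and in the NSL complex, which acts at promoters of housekeeping genes. MPP4 are the lymphoid-primed end of the multipotent progenitors: they carry the cytokine receptor Flt3 and begin to transcribe lymphoid genes such as Dntt, the enzyme that adds untemplated bases to antigen receptor joints, before any lineage is fixed.

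The Mof het libraries held 118600, 55722 and 41002 counts, against 38295, 38142 and 18040 counts in the WT libraries, so that every Mof het library was deeper than every WT library. Between 6863 and 9358 genes were detected in Mof het libraries, against 4624 to 6880 in WT libraries. Replicate 3 of WT went against its label in part of the marker genes. It held 0 counts of Flt3, Cd34, Kit, Il7r and Dntt. The other 5 libraries held 4 to 53 counts of Flt3, 1 to 26 of Cd34, 5 to 21 of Kit, 3 to 45 of Il7r and 10 to 329 of Dntt. Other genes of the gate went the other way. Ly6a, which encodes Sca-1, had 4 counts in it and the surface protein Cd48 had 6. As a share of the library's counts, both were higher there than in any other MPP4 library. The lymphoid chromatin organiser Satb1 (5 counts) was present in it. The list of 16 mature neutrophil genes made up 3.37% of its counts. This share was 0.0209% and 0.0498% in the other WT libraries and at most 0.0718% in the Mof het libraries. In WT replicate 3 the list included 217 counts of S100a8, 177 of S100a9, 125 of Camp and 46 of Lcn2. The adult beta-globin transcript Beta-s took 14.5% of this library, 10.02% of Mof het replicate 3, 2.54% of WT replicate 2 and at most 0.763% of the others. Across the 1608 genes tested, which are not independent replicates, its log2 values had a Pearson correlation of 0.300 to 0.474 with the other libraries, which had 0.447 to 0.842 among themselves. The 11 T and NK cell genes summed to 33, 3 and 1 counts in Mof het libraries, against 5, 4 and 29 counts in WT libraries, which is 1608 CPM (counts in a library scaled to 1000000 counts) in WT replicate 3 and at most 278 CPM in the others; Cd3e had 2 counts and Cd3g 0 in WT replicate 3. The 13 megakaryocyte genes summed to 24, 17 and 40 counts in Mof het libraries, against 8, 8 and 8 counts in WT libraries. For depth, these were 202, 305 and 976 CPM in Mof het, against 209, 210 and 443 CPM in WT, with overlap. Pf4 and Ppbp were at 0 in all 6. The 9 genes of stroma and endothelium summed to 15, 6 and 5 counts in Mof het libraries, against 1, 4 and 2 counts in WT libraries. As CPM these were 126, 108 and 122 in Mof het, against 26.1, 105 and 111 in WT, again with overlap. Col1a1 and Cxcl12 were at 0 in all 6. The part of these cells in the results below was not tested. Counts of called genes and list medians below are given with all 6 libraries and without WT replicate 3, as are most differences of single genes.

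**Figure D1:**
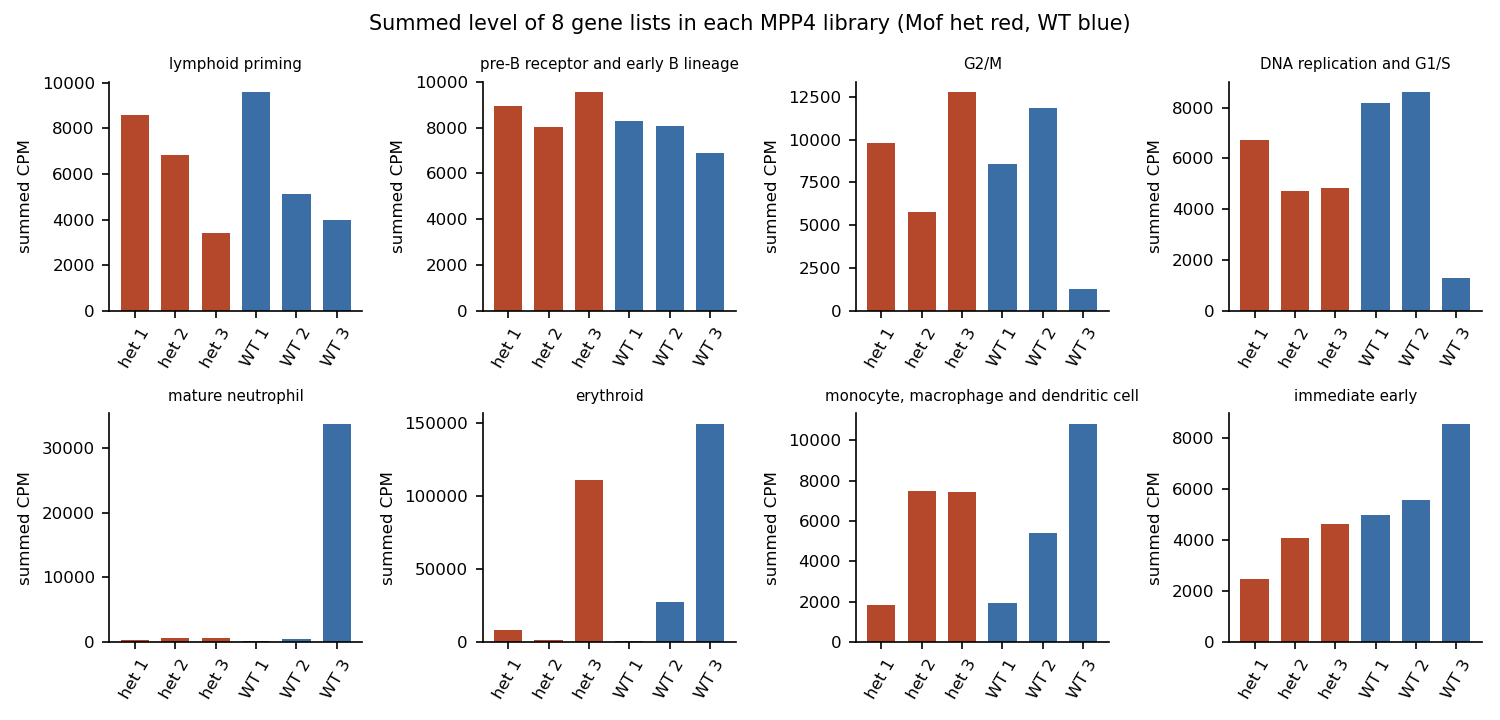
Summed CPM (a gene's share of the library's counts, scaled to a common total; linear axes) of 8 gene lists in each MPP4 library, Mof het in red on the left and WT in blue on the right. WT replicate 3 stands apart with 33703 CPM of mature neutrophil genes and 1275 CPM each of the DNA replication and G2/M genes.

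Kat8 itself was too rare to show whether 1 copy was missing. It had 0, 2 and 0 counts in the Mof het libraries, against 1, 2 and 0 counts in the WT libraries. Pooled, that is 2 counts in 215324 (9.29 CPM, exact Poisson 95% interval 1.12 to 33.6) in Mof het and 3 in 94477 (31.8 CPM, 6.55 to 92.8) in WT. The ratio was 0.293, with an exact interval of 0.0244 to 2.55 that covers counting error only. On the log2(value + 1) scale the difference was -0.47 (exact two-sided permutation test, p = 0.7; 3 against 3 libraries cannot go below 0.1). A loss in proportion to 1 copy was thus not detectable at this depth, nor was its absence, and 3′ tags need not lie in the deleted part of the gene. Kat8 lies at chr7:127912516-127925837 (+, mm10) and overlaps Prss8 on the other strand.

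No gene differed between Mof het and WT MPP4 past the threshold. limma, on log2(deposited value + 1) over the 1608 genes whose mean value reached 5, called 0 genes (0%) at a Benjamini-Hochberg adjusted p under 0.05, both with all 6 libraries and without WT replicate 3. The smallest adjusted p was 0.680 with all 6 libraries and 0.314 without that replicate. At an unadjusted p under 0.05 there were 67 genes (4.17%), of which 57 (3.54%) were higher and 10 (0.622%) lower in Mof het. Leaving out WT replicate 3 gave 109. edgeR's quasi-likelihood test on the recovered counts called 0 of 646 genes (31 at an unadjusted p under 0.05), and DESeq2 called 1 of 11231. That gene was Lcn2, whose 46 counts were all in WT replicate 3. When limma took its spread from all 36 libraries of the series, 2 genes passed (0.124%), Erdr1 and Mir682, both higher in Mof het.

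The size of difference these libraries could show was limited. The median 95% interval reached 1.17 log2 units to either side of a gene's difference, and the median standard error was 0.51. All values of the Mof het libraries lay above all values of the WT libraries for 126 genes (7.84%) and below them for 55 (3.42%). Without WT replicate 3, the corresponding counts were 202 (12.6%) and 232 (14.4%). Over all tested genes the median difference was 0.08, and -0.05 without WT replicate 3; with TMM scaling of all 6 libraries it was 0.26. The genes named below as leading are the 10 with the smallest p in each direction. None of them passed, and their values are given as a description.

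Erdr1, a gene of the pseudoautosomal region whose protein was described as a factor that induces erythroid differentiation, had the smallest p. It had 118, 37 and 11 counts in the Mof het libraries, against 3, 0 and 0 counts in the WT libraries. As normalised values these were 41.8, 27.2 and 12.7 in Mof het, against 3.26, 0 and 0 in WT. Every Mof het library lay above every WT library, and, apart from the WT libraries at 0, the values ran in the same order as the depth of the libraries; the part of depth in this was not tested. The tables place Erdr1 on chromosome Y, and GENCODE M21 holds no gene of that name, so no position is given. The pooled ratio was 24.3 (exact interval 8.16 to 119, counting error only). The log2 difference was 3.97 (SE 0.72, 95% interval 2.34 to 5.61; limma adjusted p = 0.680, or 0.00133 with the spread of all 36 libraries). Without WT replicate 3 it was 3.63 (adjusted p = 0.320).

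Mir682, the other gene that passed with the spread of all 36 libraries (adjusted p = 0.00435), is annotated as a microRNA on chromosome 13. It had 36, 12 and 6 counts in the Mof het libraries, against 0, 0 and 1 counts in the WT libraries. CEL-Seq2 captures polyadenylated RNA, and the hairpin annotated for Mir682 matches the messenger RNA of Rpl37a, a protein of the large ribosomal subunit encoded on chromosome 1, at 95 of its 96 bases. The sequences are shown because reads of one could be counted for the other. The mature miR-682 has its seed, bases 2 to 8, in capitals. The hairpin at chr13:75645046-75645141 (+, GRCm38.p6, RefSeq, written as DNA) and bases 182 to 277 of an annotated Rpl37a transcript of 558 bases (GENCODE M21) have their single differing base in capitals.
miR-682 mature (chr13:75645119-75645139, +): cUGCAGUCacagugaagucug
Mir682 hairpin: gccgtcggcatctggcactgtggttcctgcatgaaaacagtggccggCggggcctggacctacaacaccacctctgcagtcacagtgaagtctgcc
Rpl37a transcript: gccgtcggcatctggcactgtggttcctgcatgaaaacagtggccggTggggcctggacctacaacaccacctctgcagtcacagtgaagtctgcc
The single difference is C48T, counted from 1 at the 5′ end of the hairpin, with the hairpin's base first. All 21 bases of the mature form, which starts at hairpin base 74, are also in Rpl37a, seed included. The annotated gene Gm4149 overlaps the hairpin as well. Rpl37a had 155, 78 and 37 counts in the Mof het libraries, against 29, 39 and 18 counts in the WT libraries. As normalised values these were 54.9, 57.2 and 42.7 in Mof het, against 31.5, 41.8 and 41.7 in WT, so that all Mof het libraries lay above all WT libraries, by a narrow margin. Its log2 difference was 0.42 (SE 0.32, adjusted p = 0.976), against 2.78 (SE 0.996, adjusted p = 0.976) for Mir682. The value of Mir682 is therefore uncertain as a measure of the microRNA.

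Among the other leading genes with higher values in Mof het, Rps10 and Rpl31 encode proteins of the small and the large ribosomal subunit. Rps10 (chr17:27630418-27636669, -, mm10) had normalised values of 60.2, 52.8 and 40.4 in Mof het, against 19.5, 22.5 and 16.2 in WT. The lowest Mof het library was well above the highest WT library, and the log2 difference was 1.35 (95% interval 0.58 to 2.11, adjusted p = 0.846; 1.23 without WT replicate 3). Rpl31 had 14.9, 10.3 and 13.9 in Mof het, against 4.34, 2.14 and 4.63 in WT, again without overlap. Both share at least 50% of the 40-base words in their last 500 bases with other annotated genes, so their reads could be split between them: Rpl31 with 3 pseudogenes, and Rps10 with 2 pseudogenes and RPS10-NUDT3, a gene that overlaps it on the same strand. Trip4, a transcriptional coactivator of nuclear receptors, had 28, 20 and 10 counts in the Mof het libraries, against 1, 2 and 1 counts in the WT libraries. Dusp22, a phosphatase that dampens T cell receptor signalling, had 18.1, 19.8 and 21.9 in Mof het, against 5.43, 7.50 and 6.95 in WT as normalised values. Med16, a subunit of the Mediator complex, had 14.9, 16.1 and 13.9 in Mof het, against 5.43, 5.36 and 4.63 in WT. In each of these 3 genes the groups did not overlap, and the log2 differences were 2.21, 1.46 and 1.38 with all 6 libraries and 2.33, 1.498 and 1.32 without WT replicate 3. Ppt1, the lysosomal palmitoyl-protein thioesterase, differed by 1.58, and Lrrc58, a leucine-rich repeat protein, by 1.34. Gm17821, an annotated processed pseudogene, and A630089N07Rik differed by 2.14 and 1.82. Adjusted p-values of these leading genes ran from 0.680 to 0.944.

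Lower values in Mof het were led by Cd69, the early activation antigen of lymphocytes, a membrane protein that holds cells in tissue by removing the sphingosine phosphate receptor from the surface. Cd69 (chr6:129267325-129275436, -, mm10) had 3, 5 and 3 counts in the Mof het libraries, against 18, 11 and 8 counts in the WT libraries. As normalised values these were 1.06, 3.67 and 3.46 in Mof het, against 19.5, 11.8 and 18.5 in WT. The highest Mof het library stood below the lowest WT library, and the neutrophil-rich WT library lay between the other WT libraries. The pooled ratio was 0.130 (exact interval 0.0600 to 0.261, counting error only). The log2 difference was -2.30 (95% interval -3.39 to -1.21, adjusted p = 0.846), and -2.21 without WT replicate 3 (adjusted p = 0.429).

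Klf6, a zinc finger factor induced by stimulation, was next among the lower genes. Klf6 (chr13:5861482-5870394, +, mm10) had 8, 4 and 9 counts in the Mof het libraries, against 16, 17 and 9 counts in the WT libraries. Normalised, these were 2.83, 2.94 and 10.4 in Mof het, against 17.4, 18.2 and 20.8 in WT; Mof het replicate 3, the library rich in globin, was the highest of its group and still below every WT library. The log2 difference was -1.83 (95% interval -2.96 to -0.70, adjusted p = 0.874), and -1.76 without WT replicate 3. Yy1, a zinc finger protein of Polycomb and enhancer-promoter contacts, had 6.37, 2.94 and 2.31 in Mof het, against 11.9, 12.9 and 9.27 in WT as normalised values. Spn, the leukocyte sialophorin CD43, had 5.67, 2.20 and 9.24 in Mof het, against 19.5, 10.7 and 16.2 in WT. Neither overlapped between the groups. The remaining leading genes were Efhd2 (-1.29), Fam114a2 (-1.39), Mia3 (-1.21), Ebna1bp2 (-2.11), S100a10 (-1.13) and Lasp1 (-1.05), all as log2 differences with all 6 libraries. Of these, Ebna1bp2 and S100a10 overlapped between the groups. Ebna1bp2 rested on 17 counts in Mof het, 16 of them in replicate 1, and 24 in WT. Efhd2 (20 and 23), Fam114a2 (18 and 20), Mia3 (19 and 19) and Lasp1 (20 and 22) rested on similarly few counts in Mof het and WT.

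**Figure D2:**
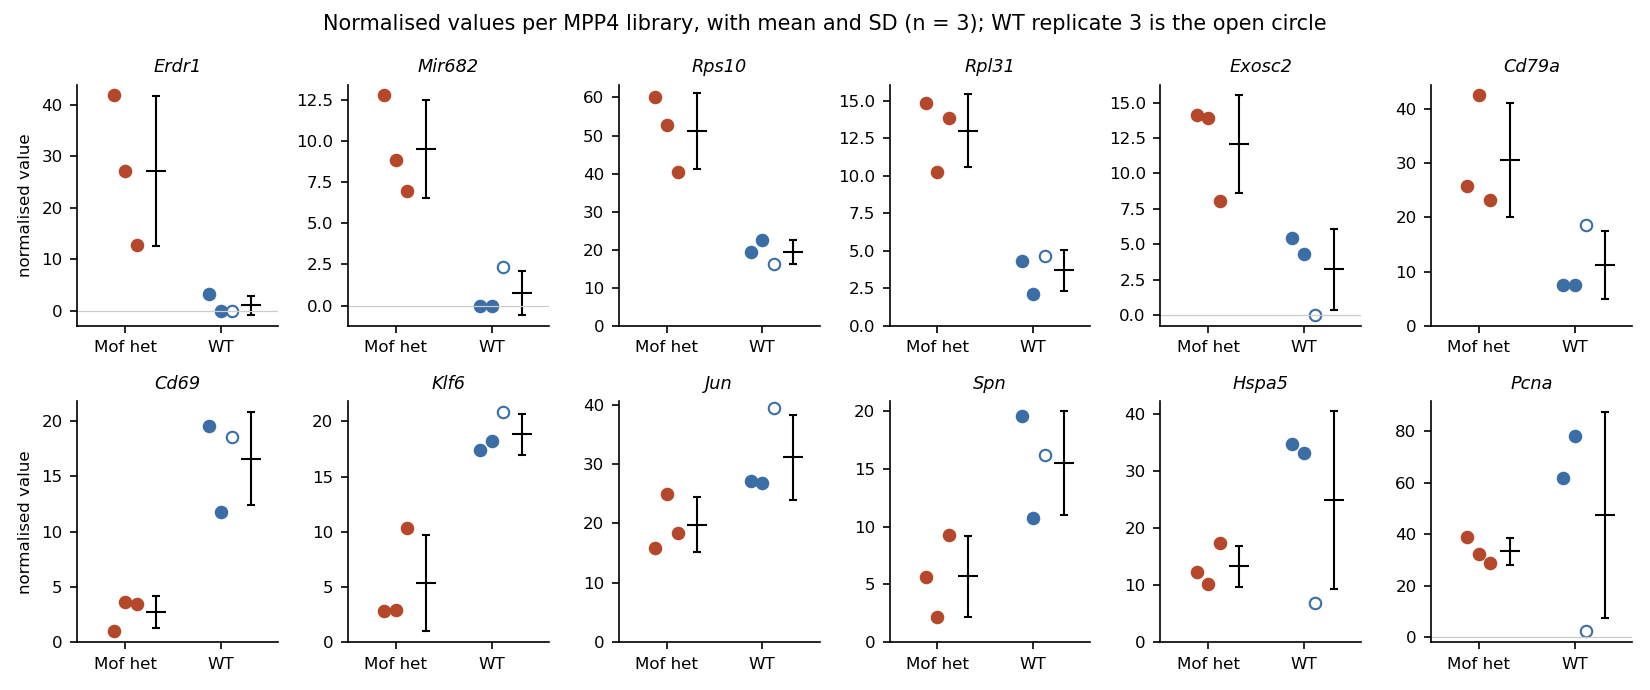
Normalised values of 12 genes in each MPP4 library, Mof het in red on the left and WT in blue on the right, with the mean and SD of each group (n = 3) in black; WT replicate 3 is the open circle. Erdr1, Mir682, Rps10, Rpl31, Exosc2 and Cd79a did not overlap with Mof het on top, Cd69, Klf6, Jun and Spn did not overlap with WT on top, and Hspa5 and Pcna separated only without WT replicate 3.

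Genes that stood out on average over the 6 populations in earlier results of these data were also read in MPP4. Exosc2, a subunit of the RNA exosome that trims and degrades RNA, had 40, 19 and 7 counts in the Mof het libraries, against 5, 4 and 0 counts in the WT libraries, a log2 difference of 1.97 (adjusted p = 0.976) and 1.13 without WT replicate 3, which held none. It was the only one of the 10 RNA exosome genes of the list that passed the filter on low values. Tspan32, a tetraspanin of blood cells, did not pass that filter and had 3, 1 and 3 counts in the Mof het libraries, against 0, 0 and 0 counts in the WT libraries. E2f2, a cell cycle transcription factor, had 6.02, 8.07 and 35.8 in Mof het, against 10.9, 10.7 and 34.7 in WT as normalised values. The groups overlapped, with the 2 globin-rich libraries on top, and the difference of -0.36 turned to 0.17 without WT replicate 3.

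MOF's own complexes were rarely counted. Of 14 genes of the MSL and NSL complexes, 3 passed the filter: Msl1, the scaffold of the MSL complex, the glycosyltransferase Ogt and its substrate Hcfc1 of the NSL complex. Msl1 had 6.73, 8.07 and 4.62 in Mof het, against 5.43, 7.50 and 6.95 in WT as normalised values and Ogt 4.25, 8.81 and 5.77 in Mof het, against 4.34, 3.21 and 16.2 in WT. Hcfc1 had 7.08, 11.7 and 11.5 in Mof het, against 11.9, 7.50 and 0 in WT, a difference of 1.18 that became 0.05 without WT replicate 3. All 3 overlapped between the groups. The summed level of all 14 genes was 1062, 1292 and 951 CPM in Mof het libraries, against 1201, 1180 and 1053 CPM in WT libraries. Of 23 genes of other lysine acetyltransferases and deacetylases, 5 were tested, with 2 differences above and 3 below 0 and a median of -0.14 (-0.13 without WT replicate 3, and 0.05 with TMM scaling).

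The genes of the gate and of lymphoid priming depended on WT replicate 3. Of 23 lymphoid priming genes 16 were tested; 11 had a difference above 0 and 5 below, with a median of 0.23, against 56.3% above 0 and a median of 0.08 over all tested genes. Without WT replicate 3, 5 were above and 11 below 0 with a median of -0.24, against 46.7% and -0.05 over all genes. Without Mof het replicate 3 as well, the median was 0.12, again against -0.05, so its sign rested on the replicate 3 libraries of both genotypes. Dntt had 117, 66.1 and 11.55 in Mof het, against 118, 46.1 and 0 in WT as normalised values, a difference of 1.38 with all 6 libraries and -0.70 without WT replicate 3, which turned to 0.24 without both replicates 3. Dntt varied widely within each genotype, and the globin-rich replicate 3 held the least of its group in both. Flt3 followed the same order within the genotypes, with 53, 16 and 4 counts in the Mof het libraries, against 21, 4 and 0 counts in the WT libraries, and its difference of 1.16 became 0.0019 without WT replicate 3. Lef1, a transcription factor of the Wnt pathway in lymphoid progenitors, and Rag1, the recombinase of antigen receptor genes, were lower in every Mof het library than in every WT library (2 of the 16, or 12.5%, against 3.42% of all genes). Without WT replicate 3 it was again 2 of the 16 (12.5%), now against 14.4% of all genes. Lef1 had 5.67, 6.61 and 4.62 in Mof het, against 14.1, 7.50 and 9.27 in WT and Rag1 4.25, 2.94 and 3.46 in Mof het, against 5.43, 5.36 and 9.27 in WT as normalised values, with differences of -0.74 and -0.73 (adjusted p = 0.976 for both), and -0.78 and -0.50 without WT replicate 3. None of the 16 was called.

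Few of the B lineage genes separated, and they did so in either direction. Of 18 pre-B and early B genes, 15 were tested. In 1 of them (6.67%, against 7.84% of all genes) all Mof het libraries lay above all WT libraries. In 1, Rag1, it was the reverse (6.67%, against 3.42% of all genes). Without WT replicate 3 it was 3 in each direction (20%), against 12.6% above and 14.4% below over all genes. The median was 0.18 (9 above and 6 below 0), and 0.10 (8 and 7) without WT replicate 3; 0 were called. Cd79a and Cd79b encode the signalling pair of the B cell receptor and the pre-B receptor. Cd79a (chr7) had 25.8, 42.6 and 23.1 in Mof het, against 7.60, 7.50 and 18.5 in WT, without overlap, a difference of 1.43 (SE 0.46, adjusted p = 0.944) and of 1.83 without WT replicate 3 (adjusted p = 0.320). Cd79b had 14.5, 33.8 and 25.4 in Mof het, against 7.60, 7.50 and 30.1 in WT. Here WT replicate 3 lay within the Mof het range, and the difference was 0.88 with it and 1.504 without it. The same held for Spib, a transcription factor of B cells and plasmacytoid dendritic cells (1.09 and 1.89), and for the B cell tetraspanin Cd37 (1.09 and 1.51). Vpreb1 and Vpreb3, which belong to the surrogate light chain and its assembly, overlapped: Vpreb1 had 43.9, 16.1 and 19.6 in Mof het, against 39.1, 42.8 and 18.5 in WT and Vpreb3 30.5, 36.7 and 48.5 in Mof het, against 36.9, 49.3 and 39.4 in WT. The list's summed level was 8938, 8022 and 9536 CPM in Mof het libraries, against 8304, 8049 and 6874 CPM in WT libraries. The mature B cell marker Ms4a1 had 9, 7 and 1 counts in Mof het, against 1, 6 and 4 counts in WT. As CPM these were 75.9, 126 and 24.4 in Mof het, against 26.1, 157 and 222 in WT.

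Markers of other blood cells varied widely between libraries of the same genotype. The 16 mature neutrophil genes summed to 422, 718 and 610 CPM in Mof het, against 209, 498 and 33703 CPM in WT. The group difference was taken in log2 terms from the sum of normalised values, not of CPM. It was -1.35 (exact two-sided permutation test, p = 0.9) and 0.89 without WT replicate 3 (exact permutation test, p = 0.3). With 3 against 2 libraries this p cannot go below 0.1. Camp, the cathelicidin of neutrophil granules, had 0, 0 and 0 counts in the Mof het libraries, against 1, 2 and 125 counts in the WT libraries. Cxcr2, the chemokine receptor of neutrophils, went the other way, with a difference of 1.08 (limma adjusted p = 0.976). Its normalised values were 17.0, 22.8 and 18.5 in Mof het, against 7.60, 11.8 and 6.95 in WT. Cxcr2 held 48, 31 and 16 of the list's 50, 40 and 25 counts in Mof het libraries. In WT libraries it held 7, 11 and 3 of 8, 19 and 608 counts. Outside WT replicate 3 the summed level was thus mostly Cxcr2. Erythroid genes summed to 8255, 1328 and 111263 CPM in Mof het, against 810, 27529 and 149501 CPM in WT. Replicate 3 of each genotype held the most, followed by WT replicate 2. The 8 tested erythroid genes had medians of 0.20 with all 6 libraries, 1.17 without WT replicate 3 and -0.22 without both replicates 3. Genes of monocytes, macrophages and dendritic cells summed to 1847, 7502 and 7414 CPM in Mof het, against 1932, 5427 and 10809 CPM in WT. Of 12 tested, 7 were above 0 with all 6 libraries (median 0.15) and 10 without WT replicate 3 (median 1.07). Without both replicates 3 the median was 0.56. Of that list only Cst3, the secreted protease inhibitor cystatin C, did not overlap (1 of the 12, or 8.33%, against 7.84% of all genes). This share was near that of all genes. Cst3 had 9.91, 24.2 and 40.4 in Mof het, against 4.34, 4.28 and 9.27 in WT as normalised values. Cd74, the class II chaperone, had 6.37, 55.0 and 10.4 in Mof het, against 1.09, 12.9 and 90.3 in WT, with overlap.

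Immediate early genes, which cells transcribe within minutes of a stimulus, were mostly below 0 in their differences. With all 6 libraries, all 16 tested of 29 had a difference below 0, with a median of -0.67, against 0.08 over all genes; without WT replicate 3, 14 lay below 0 and the median was -0.45, against -0.05. With TMM scaling 15 lay below 0 (median -0.49, against 0.26 over all genes). None passed the threshold. The list summed to 2462, 4092 and 4634 CPM in Mof het libraries, against 4988, 5558 and 8537 CPM in WT libraries. The groups did not overlap, and the sum was lower the deeper the library, through all 6 libraries; the part of depth in this was not tested. Klf6, Jun and Ier2 had all Mof het libraries below all WT libraries, 3 of the 16 (18.8%, against 3.42% of all genes); without WT replicate 3 there were again 3, against 14.4% of all genes. Jun, a subunit of the AP-1 transcription factor, had 15.9, 25.0 and 18.5 in Mof het, against 27.1, 26.8 and 39.4 in WT and a difference of -0.63 (adjusted p = 0.976; -0.45 without WT replicate 3). Ier2 had 7, 8 and 5 counts in the Mof het libraries, against 6, 6 and 5 counts in the WT libraries and a difference of -0.71 (-0.45 without WT replicate 3). Fos, the partner of Jun, had 4.25, 11.7 and 26.6 in Mof het, against 15.2, 15.0 and 27.8 in WT, and the short-lived survival factor Mcl1 had 8.85, 15.4 and 25.4 in Mof het, against 19.5, 13.9 and 18.5 in WT; both overlapped.

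**Figure D3:**
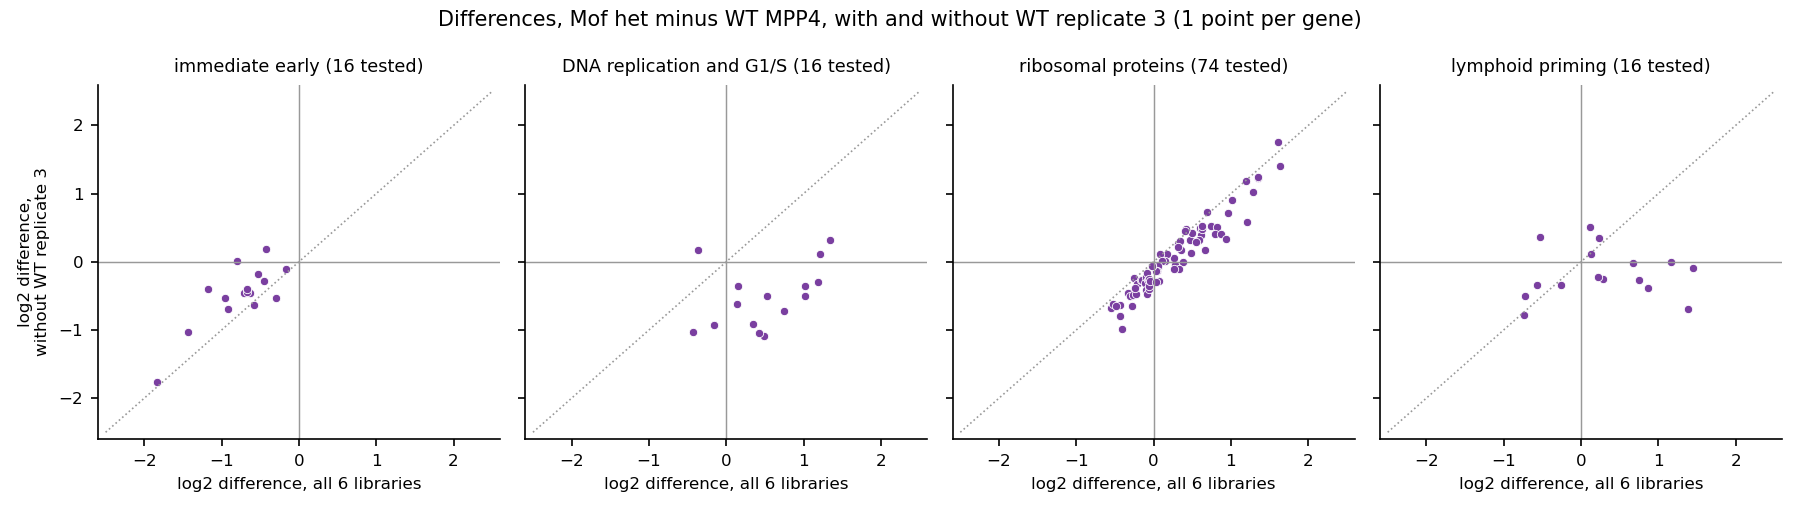
Each point is 1 tested gene of the list named above the panel; the horizontal axis is the log2 difference, Mof het minus WT MPP4, with all 6 libraries and the vertical axis the same without WT replicate 3, with equality as a dotted line. Immediate early genes lie below 0 on the horizontal axis (16 of 16, or 15 with TMM scaling), DNA replication genes shift below the line, and ribosomal protein genes spread along it.

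Cell cycle genes depended on WT replicate 3, which held 1 count of Pcna and 0 of Top2a. Pcna, the sliding clamp of DNA polymerases, had 39.0, 32.3 and 28.9 in Mof het, against 61.9, 78.2 and 2.32 in WT as normalised values. With all 6 libraries its difference was 0.42 (SE 1.05); without WT replicate 3 every Mof het library lay below both WT libraries, and the difference was -1.05 (unadjusted p = 0.00581, adjusted p = 0.445). Of 16 tested genes of DNA replication and G1/S, 12 were above 0 with all 6 libraries (median 0.46) and 3 without that replicate (median -0.56, against -0.05 over all genes); 5 (31.2%, against 14.4% of all genes) then lay below both WT libraries, which were Pcna, Mcm2, Cdt1, Cdk4 and Lig1. The list summed to 6712, 4702 and 4853 CPM in Mof het, against 8173, 8599 and 1275 CPM in WT. For 17 G2/M genes the median was 1.02 with all 6 libraries, -0.03 without WT replicate 3 and -0.47 without both replicates 3. Top2a, the topoisomerase of dividing cells, had 52.4, 29.4 and 42.7 in Mof het, against 22.8, 73.9 and 0 in WT as normalised values, with both Mof het and WT libraries over a wide range. No gene of either list was called.

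Ribosomal proteins were the most abundant list, at 170304, 154320 and 97898 CPM in Mof het libraries, against 166262, 137984 and 99612 CPM in WT libraries. In both genotypes the globin-rich libraries held the least. Of 74 tested genes 46 were above 0 (median 0.16), and 36 without WT replicate 3 (median -0.02); 0 were called. Some genes of the list nevertheless separated: 15 had all Mof het libraries above all WT libraries (20.3% of the 74, against 7.84% of all genes) and 2 the reverse (2.70%, against 3.42%), Rpl10 and Rpl19. Without WT replicate 3 the counts were 15 (20.3%, against 12.6% of all genes) and 11 (14.9%, against 14.4%), so the excess of the first over the second depended on that library. Rpl39 had 48.5, 43.3 and 41.6 in Mof het, against 23.9, 22.5 and 18.5 in WT as normalised values and a difference of 1.01 (0.91 without WT replicate 3). Rps15 had 62.3, 60.2 and 46.2 in Mof het, against 33.6, 17.1 and 23.2 in WT. More abundant members did not share this, such as Rpl41 with 192, 169.5 and 194 in Mof het, against 191, 216 and 144 in WT and Rps20 with 182, 178 and 100.5 in Mof het, against 249, 213 and 151 in WT. Rpl10 had 98.1, 92.5 and 57.7 in Mof het, against 140.0, 120.0 and 99.6 in WT, in the other direction. Many ribosomal protein genes have processed pseudogenes, so their counts may be split between copies.

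Lists of protein synthesis and folding had their lowest medians without WT replicate 3. In the 10 tested genes of ribosome biogenesis the median was -0.22 with all 6 libraries and -0.79 without that replicate, where 1 was above and 9 below 0; without both replicates 3 it was -0.35. Ncl, the nucleolar protein nucleolin, had 52.1, 28.6 and 17.3 in Mof het, against 84.7, 50.3 and 11.6 in WT, and Npm1, the histone chaperone of the nucleolus, 89.2, 49.9 and 24.2 in Mof het, against 117, 62.1 and 39.4 in WT. The 7 heat shock chaperones had medians of 0.14 and -0.68, and all 7 lay below 0 without WT replicate 3; the median was -0.40 without both replicates 3. Hsp90aa1 had 69.1, 47.7 and 34.6 in Mof het, against 119, 69.6 and 9.27 in WT as normalised values. The 7 chaperones of the endoplasmic reticulum had medians of -0.35 and -0.68. Hspa5, the chaperone BiP, had 12.4, 10.3 and 17.3 in Mof het, against 34.7, 33.2 and 6.95 in WT; its difference was -0.60 with all 6 libraries and -1.32 without WT replicate 3 (unadjusted p = 0.00405, adjusted p = 0.407). Splicing factors and hnRNPs (25 tested) had medians of 0.12 and -0.32. Hnrnpul2 had 10.6, 9.54 and 8.08 in Mof het, against 4.34, 4.28 and 2.32 in WT. Its difference was 1.19 with all 6 libraries and 0.96 without WT replicate 3, where it went against the direction of the list. No member of these lists was called.

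Metabolic and degradation lists held genes that separated in both directions. Respiratory chain genes (46 tested) had medians of 0.36 with all 6 libraries and -0.01 without WT replicate 3. In 6 of them (13.0%, against 7.84% of all genes) all Mof het libraries lay above all WT libraries, which were Atp5d, Atp5e, Atp5j, Cox7a2l, Cox8a and Ndufa6, and in 1 (2.17%, against 3.42%), Uqcrfs1, the reverse. Without WT replicate 3 the counts turned to 7 above (15.2%, against 12.6%) and 13 below (28.3%, against 14.4%). Atp5e and Ndufa6, small subunits of ATP synthase and of complex I, differed by 1.27 and 1.11, and Uqcrfs1, the Rieske protein of complex III, by -0.63. Proteasome genes (23 tested) had medians of 0.24 and -0.17; Psma6, a subunit of the core particle, had 29, 12 and 6 counts in the Mof het libraries, against 5, 1 and 0 counts in the WT libraries and a difference of 2.01 (1.39 without WT replicate 3). Psma6 was the single member with Mof het on top (4.35%, against 7.84% of all genes). Psmb3 alone separated the other way (4.35%, against 3.42% of all genes), with 6.02, 6.61 and 6.93 in Mof het, against 9.77, 12.9 and 9.27 in WT as normalised values. Glycolysis genes (8 tested) had medians of -0.18 and -0.37, and 0.01 with TMM scaling of all 6 libraries. For class I presentation (8 tested) the medians were 0.12 and 0.20, and B2m, its light chain, had 109, 132 and 99.3 in Mof het, against 102, 101 and 94.97 in WT as normalised values. The interferon response (3 tested), p53 target (2), Gimap GTPase (2), stem cell (3), primary granule (1), mature B cell (2), myeloid transcription factor (2), T and NK cell (1), megakaryocyte (1) and sex (1) lists had too few tested genes for a median to describe them, and no mast cell or stroma gene was tested. Of the 34 lists, none held a called gene.

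**Figure D4:**
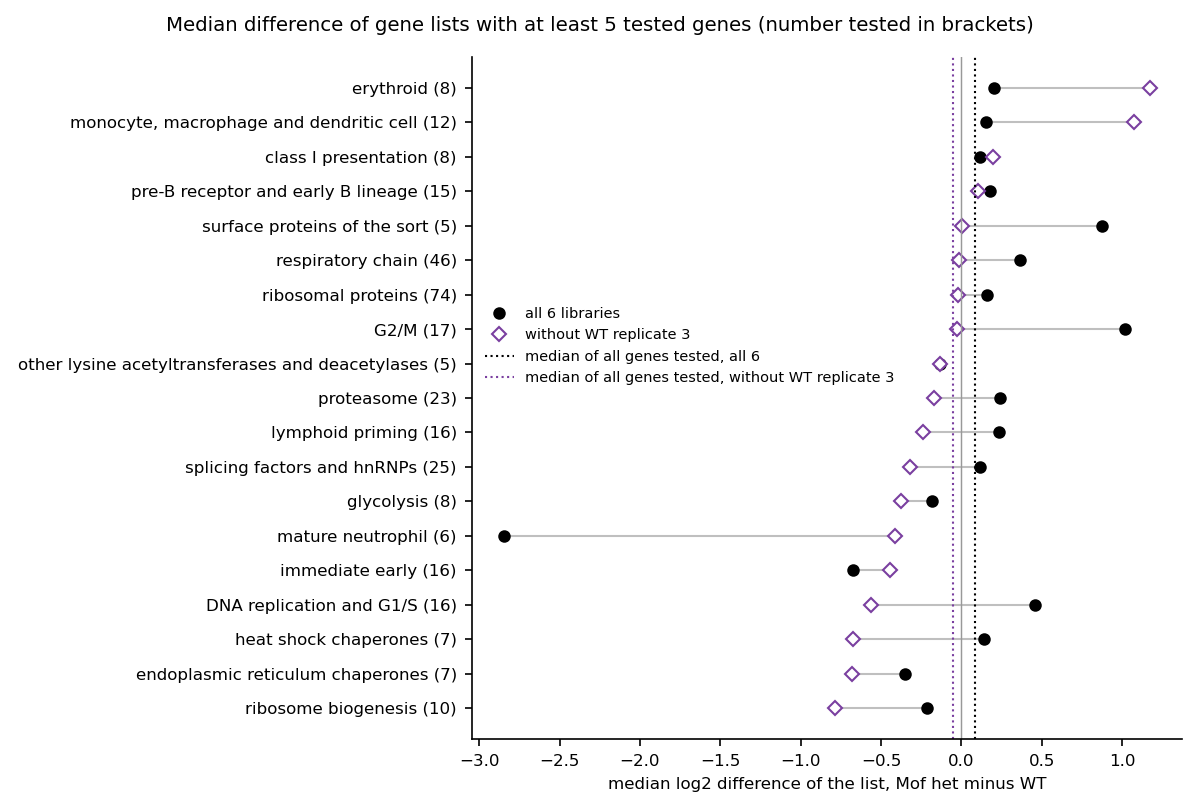
Median log2 difference, Mof het minus WT MPP4, of each list with at least 5 tested genes, with all 6 libraries (black circles) and without WT replicate 3 (open diamonds); dotted lines mark the medians over all tested genes, 0.08 and -0.05. The mature neutrophil list lies at -2.85 and -0.41, DNA replication at 0.46 and -0.56 and G2/M at 1.02 and -0.03, whereas the immediate early list is below 0 both ways.

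The genotype differences of MPP4 were then set beside those of the other 5 populations. Of the 57 genes higher in Mof het MPP4 at an unadjusted p under 0.05, 50 (87.7%) were also above 0 in MPP2 and 49 (86.0%) in MPP3, against 58.0% and 79.5% of all 1608 genes. Their median differences were 1.16 in MPP2 and 1.02 in MPP3, against 0.14 and 0.68 over all genes. In HSC 10 (17.5%), in CMP 13 (22.8%) and in MEP 23 (40.4%) were above 0, against 13.4%, 49.1% and 54.2% of all genes. MPP2 and MPP3 were sequenced in the same pool as MPP4 of their genotype, whereas HSC, CMP and MEP were in others, and the libraries of MPP2 and MPP3 also differed in depth. Mof het MPP2 libraries held 19221 to 41452 counts, against 10331 to 12339 in WT, and Mof het MPP3 libraries 58757 to 79936, against 2764 to 20839 in WT. Mof het HSC libraries held 1577 to 51873 counts, against 29086 to 35094 in WT. In HSC 86.6% of all 1608 genes lay below 0, with a median of -0.72. Population, pool and depth cannot be told apart here.

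Single genes showed this split, with the HSC values to be read beside the median of -0.72 over all genes in HSC. Rps10 differed by 1.35 in MPP4, 2.30 in MPP2 and 1.96 in MPP3, and by -1.62 in HSC, -0.27 in CMP and -0.15 in MEP. Mir682 differed by 2.78 in MPP4, 1.51 in MPP2 and 3.19 in MPP3, and by -0.89 in HSC, -0.70 in CMP and -1.40 in MEP. Erdr1 was above 0 in all 6 populations, with differences of 3.97 in MPP4, 3.19 in MPP2, 3.77 in MPP3, 0.59 in HSC, 2.48 in CMP and 2.78 in MEP. Among the lower genes, Cd69 differed by -2.30 in MPP4, -0.30 in MPP2 and 1.30 in MPP3, and by -1.54 in HSC, -0.85 in CMP and -1.14 in MEP, and Klf6 by -1.83 in MPP4, -0.27 in MPP2 and 0.07 in MPP3, and by -0.57 in HSC, -3.48 in CMP and -2.20 in MEP. Spn was below 0 in MPP4 alone, with differences of 0.09 to 1.21 in the other 5 populations.

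**Figure D5:**
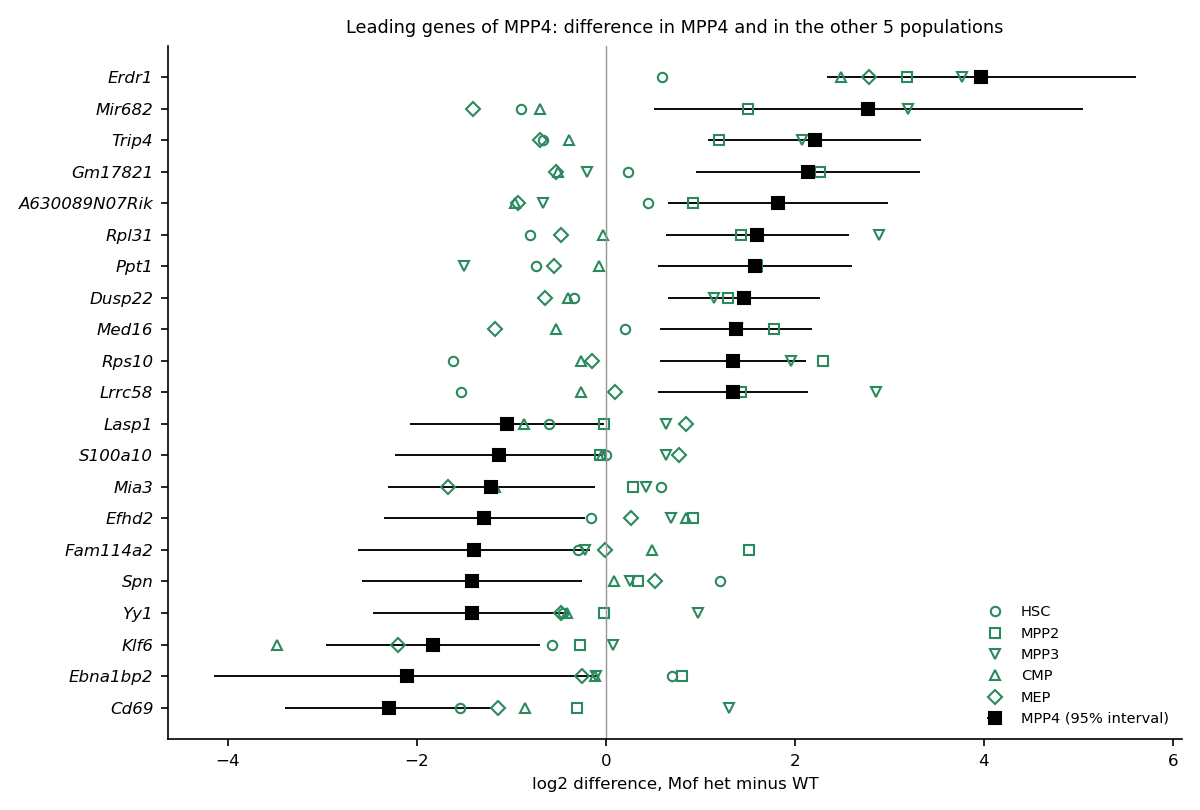
Log2 difference, Mof het minus WT, of the 20 leading genes and Mir682 in MPP4 (black squares with 95% intervals, all 6 libraries) and in each of the other 5 populations (open green symbols). Higher genes such as Rps10, Trip4 and Dusp22 are above 0 in MPP2 and MPP3 and below 0 in HSC, CMP and MEP, whereas Erdr1 is above 0 in all 6 populations. In HSC 86.6% of all genes tested are below 0.

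Whether MPP4 differed from the other populations in its response to genotype was tested as an interaction over all 36 libraries. limma called 0 of 1608 genes (0%), with 65 at an unadjusted p under 0.05, and edgeR called 0 of 1633, with 106. The smallest p belonged to Mir682, whose MPP4 difference exceeded the mean of the others by 2.44 (SE 0.58, adjusted p = 0.229). For Erdr1 the excess was 1.41 (SE 0.74) and for Klf6 -0.54 (SE 0.62), both at adjusted p = 0.992. Leaving out the libraries under 15000 counts, which removed all WT MPP2 libraries and with them MPP2, left 1 WT library of MPP3, assumed to vary like the other groups, and 2 Mof het libraries of HSC, and gave 14 genes (13 with the higher difference in MPP4), among them Cxcr2, Dusp22, Gm10653, Grk4, Lcmt2, Mir682, Ppt1, Rab27a, Rpl37, Rpl39, Rps10, Trip4 and Yy1. Without WT replicate 3 of MPP4, Mir682 alone passed.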

How the data were processed

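Cells were sorted 15 at a time and profiled by CEL-Seq2, per the labels' protocols; the submitters' processing notes name BWA (version 0.6.2-r126) and the build mm10. The sources used here do not give the handling of molecular identifiers, the counter, its use of strand or the annotation. Each deposited value is a signal: the count of a gene over the size factor that the authors used for that library, as the values show; dividing each column by its smallest positive value gave whole counts for 100% of values (within 0.01). The design was written for such scaled values. The 92 spike-in transcripts were left out. Whole counts gave CPM, depth and the count tests; intervals cover counting error only. The main test was limma 3.58.1 (R 4.3.3) on log2 values (pseudocount 1, trended prior variance) over the 6 MPP4 libraries and the 1608 genes with a mean of at least 5, adjusted by Benjamini-Hochberg at 0.05; this scale understates the change of low genes. edgeR 4.0.16 and DESeq2 1.42.0 were alternatives, as were other scalings, filters and pseudocounts and leaving out each library. The fits were tested on simulated data. Named are Kat8, Erdr1, Exosc2, Klf6, E2f2, Tspan32, genes called by any fit, the highest members of 34 lists and, chosen after their values were seen, the 10 genes of smallest p in each direction and members whose groups separated. The comparison and the lists were chosen with earlier results of these data known. Positions are from GENCODE M21 (GRCm38, the build mm10), sequences from RefSeq and GENCODE M21; 40-base words of transcript ends were compared between genes.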

Additional observations from a re-analysis of the deposited data

How the results depend on the processing

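The count of 0 called genes held under every alternative except 3: limma with the spread of all 36 libraries called 2, edgeR over all 36 libraries, added after seeing the data, called 2, and DESeq2 called 1. Leaving out each replicate in turn gave 0 in all 6 fits. Over 44 named genes and 794 values under an alternative, 773 kept their direction and side of the threshold, 5 passed it and 16 changed direction. Outside the limma fits that leave out 1 library, Pcna turned to -0.52 with edgeR TMM, -0.53 with edgeR RLE and -0.53 with DESeq2. It also turned to -0.96 with edgeR without WT replicate 3, -0.95 without both replicates 3 and -0.54 with edgeR over all 36 libraries. edgeR without WT replicate 3, which also leaves out 1 library, turned E2f2 (0.67), Dntt (-0.24), Flt3 (-0.044) and Top2a (-0.12). With all 6 libraries, edgeR TMM kept the direction of E2f2 (-0.27), Dntt (0.23), Flt3 (0.29) and Top2a (0.33). Leaving out both replicates 3 turned Top2a (-0.068). The cause was not tested. With 1 replicate left out, E2f2 ran from -1.10 to 0.17, Pcna from -1.05 to 1.24, Dntt from -0.70 to 2.75 and Top2a from -0.029 to 3.08. The log2 difference of the summed neutrophil level, from normalised values, ran from -2.78 to 0.89 when 1 replicate was left out. The value without WT replicate 3 is 0.89. For Kat8 this range was -0.92 to -0.10. The interaction called 1 gene with a pseudocount of 5, and 14 without libraries under 15000 counts and 1 without WT replicate 3, the single left-out library run for it; that gene was Mir682 in the fits that called 1. No paired analysis was possible because the labels and columns give the genotypes no shared replicate numbers. Depth limits all results: a single count was worth 8.43 CPM in the deepest and 55.4 CPM in the shallowest library.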
